A study of Mus musculus with 12 samples.

Results

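Semaphorins, plexins and neuropilins form a family of guidance cues and their receptors, and 29 of its genes were measured here among 30142 genes tested. They were taken by name from the array's annotation: every gene whose symbol begins with Sema3 to Sema7 or with Plxn, together with Nrp1 and Nrp2, where the array feature carried 1 symbol only. The rule gave 19 semaphorins, 9 plexins and 1 neuropilin (Nrp2), each with 1 feature on the array. A further 3 features name the family together with another gene (Nrp1, Sema4a and the Plxna4 antisense gene Plxna4os1) and are not analysed here.

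The tissue was mouse hippocampus, cut out by laser capture microdissection and read on 12 Affymetrix whole-transcriptome arrays, which report a hybridization signal as a log2 expression value. There were 4 groups of 3 arrays: the CA2 dendritic layer (stratum radiatum), the CA2 cell body layer (stratum pyramidale), the CA1 dendritic layer and the CA1 cell body layer. All groups came from male mice 6 to 8 weeks old of the strain labelled Amigo2-GFP C57BL/6J (Amigo2-EGFP in the protocol), which carry a green fluorescent reporter named for Amigo2, a gene marking CA2, and no mouse without the reporter was included. The protocol names 3 mice from separate litters and 4 pieces per brain, but the labels do not state that the array number is the mouse, so p-values measure the spread between these arrays. A captured layer holds all of its cell types, and fewer cells of a type and less RNA per cell cannot be told apart in it.

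Semaphorins are signalling proteins that attract or repel growing axons and shape synapses. Class 3 members are secreted, classes 4, 5 and 6 span the membrane, and Sema7a is held on the cell surface by a lipid anchor. Plexins are their receptors and act inside the cell through a domain that switches off small GTPases of the Ras and Rap group, while neuropilins bind most class 3 semaphorins and lend them to A-type plexins. In the hippocampus these proteins are known for sorting axons into layers and for limiting or promoting synapses on dendrites, and several stay expressed in the adult.

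Array pairs of a group correlated at 0.990 to 0.997 across genes. The labels give the 6 CA2 arrays run number 907 and the 6 CA1 arrays run number 938, and a difference between regions cannot be told apart from one between runs, while each comparison of layers stays within a run. On 3 arrays (CA2 cell body 1, and CA2 dendritic 2 and 3) the mean of 18 oocyte genes was 7.38 to 7.54, against 5.34 to 5.74 on the other 9 arrays. These 3 arrays are called oocyte-bearing below for this signal alone, and its source is not given in the sources used here. Calls that ended without those arrays are marked beside the gene. Leaving them out keeps only CA2 dendritic array 1 and CA2 cell body arrays 2 and 3. An ended call therefore cannot be told apart from the effect of having fewer arrays. All 11 measured CA2 neuron markers were higher in the CA2 than in the CA1 cell body layer, with Amigo2 at 9.73 ± 0.18 in CA2 and 6.90 ± 0.10 in CA1 (SD, n = 3 each). Of 7 measured CA1 neuron markers, 4 were lower in the CA2 cell body layer and 3 did not differ by limma's test (log2 differences -2.96 to 0.39). Among the CA1 markers, Wfs1 was at 8.70 ± 0.27 in CA2 and 11.42 ± 0.09 in CA1. Every measured marker of astrocytes (12 genes), microglia (11), endothelium (11), oligodendrocytes (11), their precursors (9) and mural cells (10) was higher in the dendritic than in the cell body layer of both regions. The summed astrocyte markers, as log2, were 14.17 to 14.27 in CA2 dendritic arrays against 12.12 to 12.14 in CA2 cell body arrays, and 14.07 to 14.11 in CA1 dendritic arrays against 11.94 to 12.02 in CA1 cell body arrays. Of 13 interneuron markers, 10 were up in the dendritic layer of CA2 and 11 in that of CA1 (with 1 down there), and fibroblast markers for 6 of 7 in CA2 and 7 of 7 in CA1. The interneuron sums were 13.18 to 13.40 in CA2 dendritic arrays against 11.82 to 11.98 in CA2 cell body arrays, and 12.91 to 13.30 in CA1 dendritic arrays against 11.69 to 11.83 in CA1 cell body arrays. Pyramidal neuron markers went the other way for 8 of 9 genes in CA2 and 7 of 9 in CA1, with 1 up in each region. Their sums were 13.37 to 13.45 in CA2 dendritic arrays against 13.92 to 13.98 in CA2 cell body arrays. In CA1 the sums were 13.70 to 13.72 in dendritic arrays against 14.09 to 14.13 in cell body arrays. These lists move with every layer difference below, and their part in it was not tested. No marker can read 0 on this scale.

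The family was split by layer. B-type plexins, Sema3c, Sema3d, Sema4d, Sema4g, Sema5a, Sema6a and Sema6d were higher in the dendritic layer of both regions. Plxna1, Plxna2, Plxna4, Sema3e and Sema4f were higher in the cell body layer of both regions, while the A-type Plxna3 was not. In CA2, 19 of the 29 genes were called between the dendritic and cell body layers, that is, passed limma's test at an adjusted p under 0.05 over all genes, 11 with more signal in the dendritic layer and 8 with less, where 34.0% of all genes passed (16.2% higher and 17.8% lower). In CA1, 20 passed, 15 with more signal in the dendritic layer and 5 with less, where 46.9% of all genes passed (28.3% higher and 18.5% lower). Differences are dendritic minus cell body in log2, so that a value of 1 is 2-fold. Their median over the 29 genes was 0.11 in CA2 and 0.19 in CA1, beside -0.03 and 0.12 over all genes. At least 2-fold differences were called for 11 of the 29 in CA2, beside 5.85% of all genes, and for 8 of the 29 in CA1, beside 6.13% of all genes. Both regions called 10 genes higher in the dendritic layer (12.4% of all genes) and 5 lower (12.2% of all genes), and 0 were called in opposite directions (1.17% of all genes).

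**Figure D1:**
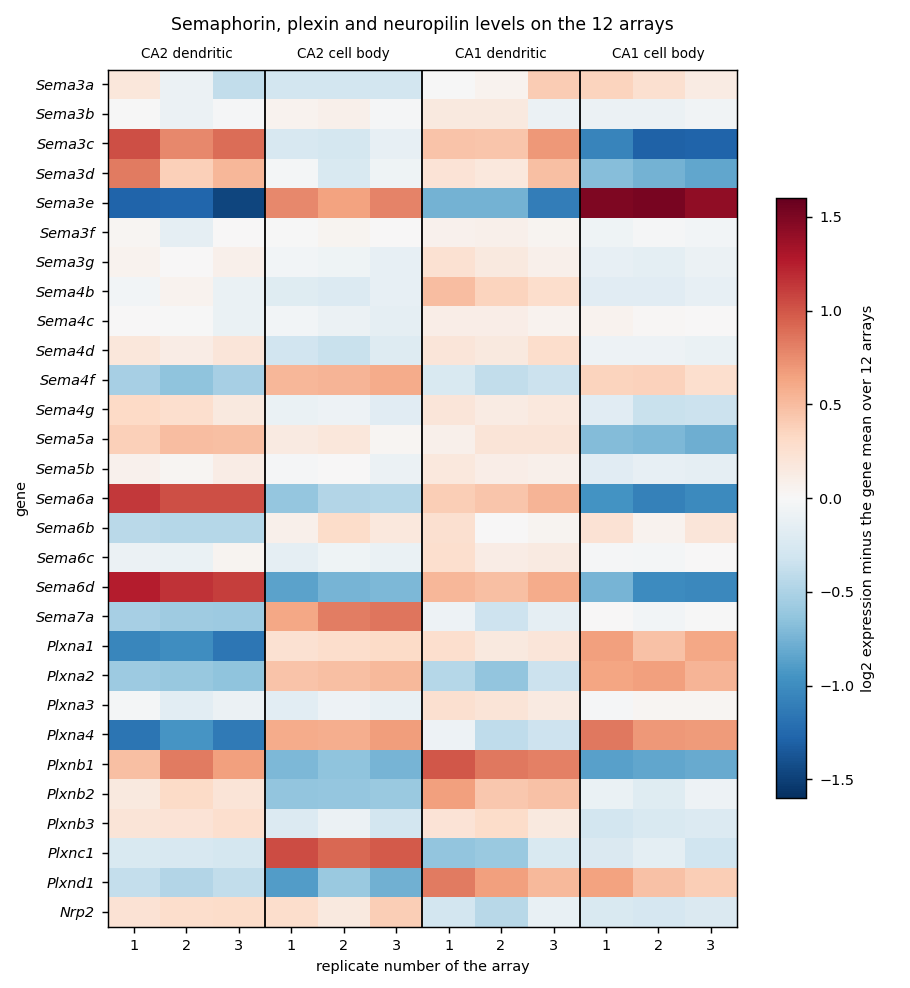
Heat map of the 29 genes (rows, grouped by class) on the 12 arrays (columns, by group), coloured by the log2 value minus the gene's mean over all arrays. Plxnb1, Sema6a and Sema6d are above their own means in the dendritic arrays of both regions, and Sema3e, Plxna2 and Plxna4 are above theirs in the cell body arrays of both regions.

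Among the 7 secreted class 3 semaphorins, Sema3e and Sema3c showed the largest layer differences, in opposite directions. Sema3e, which binds the receptor Plxnd1 without a neuropilin, read 7.10, 7.11 and 6.91 in the CA2 dendritic layer against 9.15, 9.03 and 9.17 in the CA2 cell body layer. In CA1 it read 7.63, 7.63 and 7.28 in the dendritic layer against 9.87, 9.90 and 9.80 in the cell body layer. No dendritic array reached any cell body array in either region. The difference was -2.08 (SE 0.09, adjusted p = 6.77e-08) in CA2, a 4.22-fold lower level, and -2.34 (SE 0.09, adjusted p = 3.7e-08) in CA1, a 5.07-fold lower level. It was the largest fall of the family in both regions.

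Sema3c, a secreted ligand of neuropilin and plexin complexes, was the class 3 member with the largest rise. It read 8.92, 8.66 and 8.78 in the CA2 dendritic layer against 7.63, 7.61 and 7.76 in the CA2 cell body layer, a difference of 1.12 (SE 0.09, adjusted p = 4.68e-06). In CA1 the values were 8.34, 8.33 and 8.58 in the dendritic layer against 6.83, 6.59 and 6.60 in the cell body layer, a difference of 1.74 (SE 0.09, adjusted p = 2.69e-07). All dendritic arrays lay above all cell body arrays of their region. Sema3d, also secreted, was higher in the dendritic layer by 0.70 in CA2 (adjusted p = 0.000337) and 1.05 in CA1 (adjusted p = 1.92e-05), although in the cell body layers it lay at 5.54 ± 0.11 in CA2 and 4.90 ± 0.07 in CA1 (SD, n = 3 each), below the 5.68 to 5.88 that were the medians of all features. Of the others, Sema3g was called higher in the CA1 dendritic layer alone (0.29, adjusted p = 0.00423), and that call was lost without all arrays numbered 1 (0.24, adjusted p = 0.0706) or 2 (0.28, adjusted p = 0.0596). Sema3a, Sema3b and Sema3f passed in neither region, although Sema3b passed in CA1 without CA1 dendritic array 3 (0.24, adjusted p = 0.0199). Sema3f, the ligand that prunes dendritic spines through Nrp2, stayed between 6.72 and 6.94 on all 12 arrays.

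Transmembrane semaphorins of class 6 held the largest rises in CA2. Sema6d, a ligand of Plxna1, read 9.75, 9.64 and 9.59 in the CA2 dendritic layer against 7.63, 7.74 and 7.77 in the CA2 cell body layer. In CA1 it read 9.02, 8.97 and 9.08 in the dendritic layer against 7.74, 7.48 and 7.46 in the cell body layer. The difference was 1.95 (SE 0.09, adjusted p = 8.33e-08) in CA2 and 1.46 (SE 0.09, adjusted p = 6.14e-07) in CA1, with no overlap. Sema6a, the ligand through which Plxna2 and Plxna4 order hippocampal mossy fibres, was at 8.69, 8.59 and 8.59 in the CA2 dendritic layer against 6.94, 7.09 and 7.10 in the CA2 cell body layer (1.58, SE 0.07, adjusted p = 1.19e-07). In the CA1 dendritic layer it was at 7.95, 8.00 and 8.10, against 6.60, 6.48 and 6.54 in the CA1 cell body layer (1.48, SE 0.07, adjusted p = 2.12e-07). Sema6a, too, showed no overlap of layers in either region.

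The other class 6 genes did not follow Sema6a and Sema6d. Sema6b, a ligand of Plxna4, was lower in the CA2 dendritic layer, at 7.98, 7.95 and 7.96, against 8.49, 8.70 and 8.58 in the CA2 cell body layer (-0.63, SE 0.09, adjusted p = 0.000223). In CA1 its layers overlapped, at 8.67, 8.42 and 8.45 in the dendritic layer and 8.64, 8.47 and 8.61 in the cell body layer (-0.06, adjusted p = 0.584), and after quantile normalization of all features that uncalled difference turned to 0.07. Sema6c passed narrowly in CA1 (0.19, adjusted p = 0.0407) and not in CA2, and its CA1 call was lost on leaving out any 1 of 8 arrays, namely the 3 of the CA2 cell body layer, CA1 dendritic arrays 1 and 2 and the 3 of the CA1 cell body layer (0.13 to 0.22, adjusted p = 0.0502 to 0.154), or the oocyte-bearing arrays (adjusted p = 0.0601).

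Class 4 was divided. Sema4f, whose tail binds the synaptic scaffold PSD-95, was the member lower in the dendritic layer, at 6.96, 6.85 and 6.96 in the CA2 dendritic layer against 8.02, 8.03 and 8.08 in the CA2 cell body layer (-1.12, SE 0.07, adjusted p = 5.83e-07). In the CA1 dendritic layer it was at 7.25, 7.09 and 7.15, against 7.84, 7.86 and 7.76 in the CA1 cell body layer (-0.66, SE 0.07, adjusted p = 2.39e-05). The layers did not overlap in either region. Sema4d, the ligand of Plxnb1, was higher in the dendritic layer by 0.45 in CA2 (adjusted p = 0.000189) and 0.30 in CA1 (adjusted p = 0.00231). Sema4g, a ligand of Plxnb2, was higher by 0.38 in CA2 (adjusted p = 0.000967) and 0.46 in CA1 (adjusted p = 0.000231). Without the 3 oocyte-bearing arrays the CA2 call was lost for Sema4d (0.46, adjusted p = 0.0513) and Sema4g (0.35, adjusted p = 0.122). Sema4b passed in CA1 (0.54, adjusted p = 0.000221) and not in CA2 (0.15, adjusted p = 0.159), and Sema4c in neither.

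In class 5, whose members carry thrombospondin repeats beside the sema domain, Sema5a read 7.52, 7.63 and 7.62 in the CA2 dendritic layer against 7.28, 7.32 and 7.17 in the CA2 cell body layer (0.33, SE 0.07, adjusted p = 0.00311). In CA1 it read 7.22, 7.35 and 7.35 in the dendritic layer against 6.45, 6.42 and 6.36 in the cell body layer (0.90, SE 0.07, adjusted p = 3.51e-06). Its layers did not overlap, but the CA2 call was lost without the 3 oocyte-bearing arrays (0.31, adjusted p = 0.194) and without all arrays numbered 3 (0.27, adjusted p = 0.0538). Sema5b passed in CA1 alone (0.27, adjusted p = 0.00612), a call lost without all arrays numbered 1 (0.23, adjusted p = 0.0886).

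Sema7a, the lipid-anchored semaphorin that binds Plxnc1 and beta-1 integrin, was lower in the dendritic layer of CA2. It read 8.85, 8.82 and 8.81 in the CA2 dendritic layer against 10.01, 10.20 and 10.24 in the CA2 cell body layer (-1.32, SE 0.08, adjusted p = 8.1e-07). In CA1 the values were 9.31, 9.06 and 9.24 in the dendritic layer and 9.39, 9.34 and 9.38 in the cell body layer (-0.17, SE 0.08, adjusted p = 0.121). The CA1 layers did not overlap, yet the difference did not pass.

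**Figure D2:**
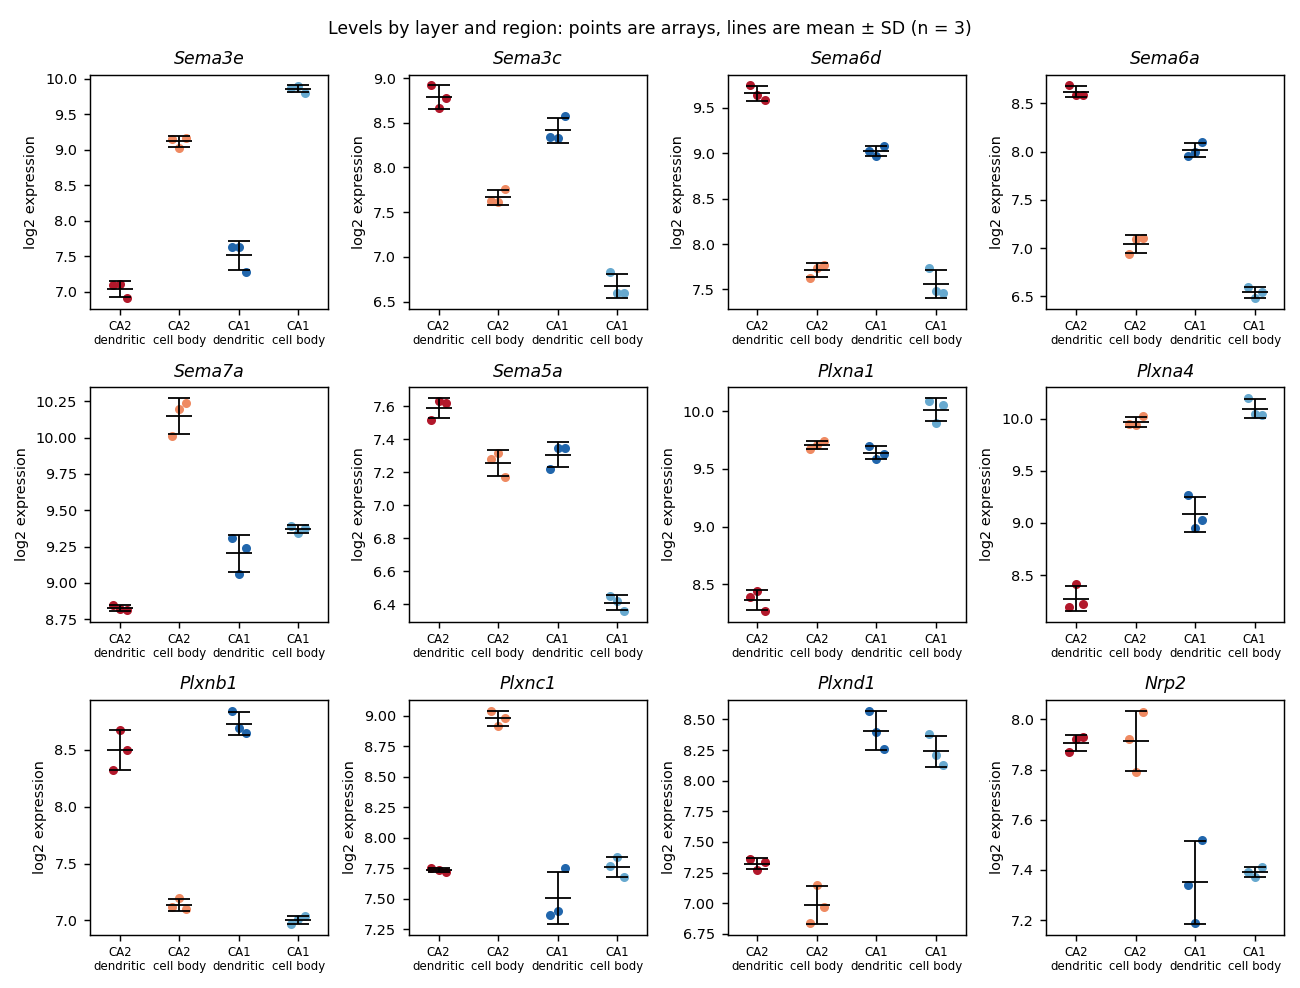
Log2 expression of 12 genes of the family on each array (points, 3 per group) with lines at the group mean ± SD, a panel with its own scale for each gene, groups from left to right CA2 dendritic, CA2 cell body, CA1 dendritic and CA1 cell body. Sema7a and Plxnc1 are highest in the CA2 cell body layer, and Plxnd1 lies between 8.13 and 8.57 in CA1 and between 6.84 and 7.36 in CA2.

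Receptors of the A type, which serve class 3 semaphorins with neuropilins and class 6 semaphorins directly, were higher in the cell body layer for 3 of 4 genes in both regions. Plxna4 read 8.19, 8.41 and 8.22 in the CA2 dendritic layer against 9.95, 9.94 and 10.03 in the CA2 cell body layer (-1.70, SE 0.10, adjusted p = 3.85e-07). In the CA1 dendritic layer it read 9.27, 8.95 and 9.03, against 10.20, 10.05 and 10.04 in the CA1 cell body layer (-1.01, SE 0.10, adjusted p = 1.42e-05). Plxna2 differed by nearly the same amount in the regions, with 8.24, 8.22 and 8.18 in the CA2 dendritic layer against 9.28, 9.31 and 9.34 in the CA2 cell body layer (-1.10, SE 0.08, adjusted p = 2.17e-06). In CA1 it had 8.37, 8.19 and 8.48 in the dendritic layer against 9.46, 9.48 and 9.37 in the cell body layer (-1.09, SE 0.08, adjusted p = 2.47e-06). Neither gene's layers overlapped in either region.

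Plxna1, the plexin that also pairs with Trem2 in myeloid cells, was lowest in the CA2 dendritic layer. It read 8.39, 8.44 and 8.27 in the CA2 dendritic layer against 9.67, 9.71 and 9.74 in the CA2 cell body layer (-1.34, SE 0.07, adjusted p = 3.57e-07). The CA1 values were 9.70, 9.59 and 9.63 in the dendritic layer against 10.09, 9.90 and 10.05 in the cell body layer (-0.37, SE 0.07, adjusted p = 0.00222). The CA2 dendritic arrays were the low ones of the 12, and the CA1 call was lost after quantile normalization (-0.22, adjusted p = 0.053). Plxna3, a receptor of Sema3f with Nrp2, passed in CA1 alone and in the other direction (0.19, adjusted p = 0.0393). That call was lost on leaving out any 1 of 8 arrays, namely CA2 dendritic array 3, CA2 cell body arrays 2 and 3, CA1 dendritic arrays 1 and 2 and the 3 of the CA1 cell body layer (0.16 to 0.21, adjusted p = 0.051 to 0.149), or the oocyte-bearing arrays (adjusted p = 0.0613).

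All 3 receptors of the B type, which bind class 4 semaphorins, were higher in the dendritic layer in both regions. Plxnb1 read 8.32, 8.67 and 8.50 in the CA2 dendritic layer against 7.12, 7.20 and 7.10 in the CA2 cell body layer (1.36, SE 0.09, adjusted p = 1.11e-06). In CA1 it read 8.84, 8.69 and 8.65 in the dendritic layer against 6.97, 7.01 and 7.04 in the cell body layer (1.72, SE 0.09, adjusted p = 2.7e-07). The lowest dendritic array lay well above the highest cell body array in both regions. Plxnb2 was higher by 0.84 in CA2 (adjusted p = 1.17e-05) and 0.65 in CA1 (adjusted p = 7.21e-05). Plxnb3, a receptor of Sema5a, was higher by 0.44 in CA2 (adjusted p = 0.00046) and 0.47 in CA1 (adjusted p = 0.000237), and its CA2 call was lost without the 3 oocyte-bearing arrays (0.43, adjusted p = 0.0698).

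Of the remaining receptors, Plxnc1, the plexin of Sema7a, was lower in the CA2 dendritic layer, at 7.75, 7.74 and 7.72, against 9.04, 8.92 and 8.98 in the CA2 cell body layer (-1.24, SE 0.10, adjusted p = 4.27e-06). In CA1 its layers overlapped, at 7.37, 7.40 and 7.75 in the dendritic layer and 7.77, 7.84 and 7.68 in the cell body layer (-0.26, adjusted p = 0.0552). That CA1 difference passed without CA1 dendritic array 3 (-0.39, adjusted p = 0.00226) or CA1 cell body array 3 (-0.34, adjusted p = 0.0354). Plxnd1, the receptor of Sema3e, was at 7.36, 7.27 and 7.34 in the CA2 dendritic layer and 6.84, 7.15 and 6.97 in the CA2 cell body layer (0.34, adjusted p = 0.0243). Its CA2 call did not stand without CA2 dendritic array 1 or 3 or CA2 cell body array 1 (0.21 to 0.34, adjusted p = 0.0619 to 0.115), nor without the 3 oocyte-bearing arrays (0.07, adjusted p = 0.761). In CA1 Plxnd1 was at 8.57, 8.40 and 8.26 in the dendritic layer and 8.38, 8.21 and 8.13 in the cell body layer, which overlapped (0.17, adjusted p = 0.183), a difference that passed with quantile normalization (0.29, adjusted p = 0.0482). The neuropilin Nrp2 showed no called layer difference in CA2 (-0.01, 95% interval -0.17 to 0.16, adjusted p = 0.963) or CA1 (-0.04, 95% interval -0.21 to 0.13, adjusted p = 0.672).

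**Figure D3:**
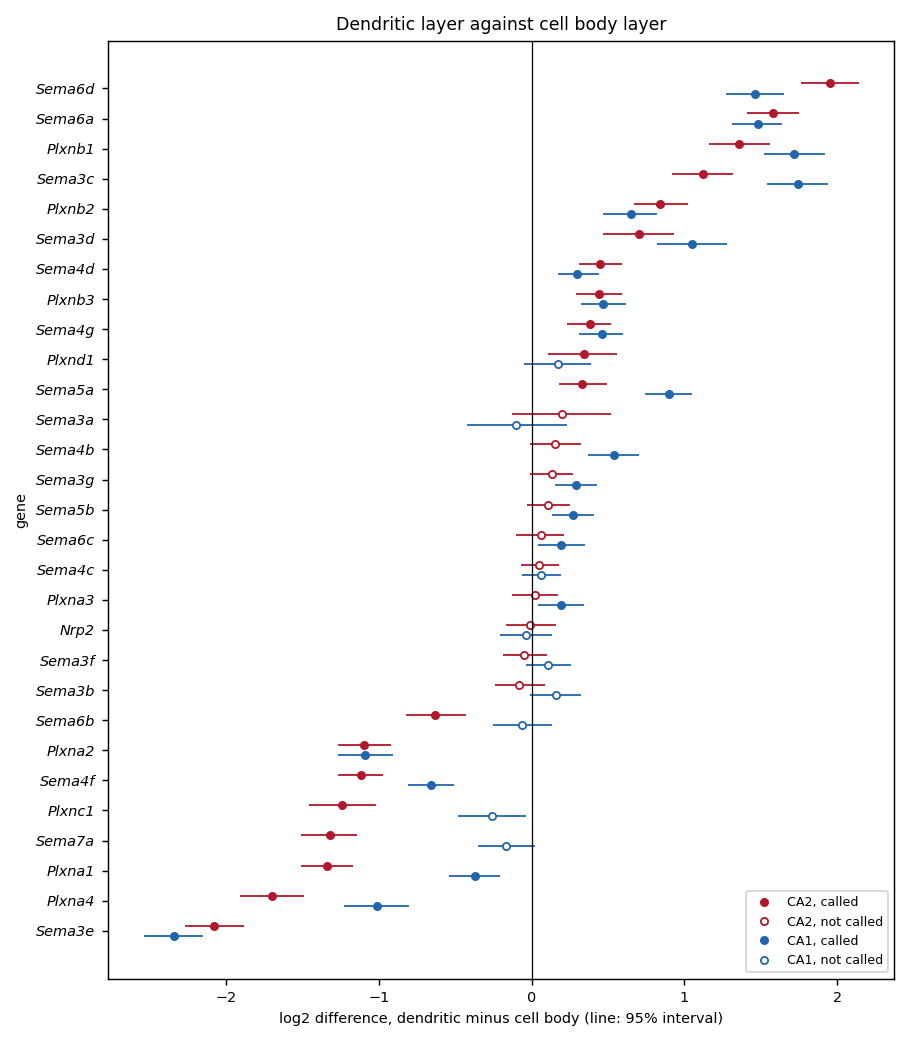
Dendritic minus cell body layer difference in log2 for each of the 29 genes in CA2 and in CA1, with 95% intervals, filled where the adjusted p is under 0.05. The CA2 and CA1 values of Plxna2 nearly coincide (-1.10 and -1.09), whereas those of Sema7a, Plxnc1 and Plxna1 lie about 1 unit apart.

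Whether a layer difference differed between CA2 and CA1 was tested as the CA2 difference minus the CA1 difference, from which a run shift equal in both layers cancels. It passed for 10 of the 29 genes, 1 above 0 and 9 below, where 11.6% of all genes passed (4.81% above and 6.81% below), and the median of the 29 was -0.16 beside -0.11 over all genes. Leaving out the 3 oocyte-bearing arrays keeps only array 1 of the CA2 dendritic layer, so the number passing in that fit is not given. Sema7a had the value farthest from 0 (-1.16, SE 0.12, adjusted p = 0.000301) and was the member past 2-fold, where 1.37% of all genes were. Plxna1 had -0.97 (SE 0.11, adjusted p = 0.000481). These 2 genes passed under each of the 22 alternatives that apply to this test. Plxnc1 had -0.99 (SE 0.14, adjusted p = 0.00221) and lost the call without the oocyte-bearing arrays (-0.85, adjusted p = 0.104). All 11 CA2 neuron markers moved the same way as these 3 genes, with a median of -2.42. So did 7 of 11 microglia markers, with a median of -0.52, and 4 of 9 pyramidal markers, with a median of -0.60. Other lists went the other way: 4 of 7 CA1 neuron markers passed above 0 and 0 below (median 0.57). Of 13 interneuron markers, 3 passed above 0 and 1 below (median 0.26). The part of these lists in the result was not tested.

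The remaining calls of this test were smaller. Plxna4 (-0.69, adjusted p = 0.0112) lost the call without all arrays numbered 1 (-0.61, adjusted p = 0.0657) or 3 (-0.63, adjusted p = 0.0951). Sema3c (-0.62, adjusted p = 0.0136), Sema5a (-0.56, adjusted p = 0.00597) and Sema4f (-0.46, adjusted p = 0.0132) each lost it when the 3 oocyte-bearing arrays were left out (-0.57 for Sema3c, -0.59 for Sema5a and -0.52 for Sema4f). Sema3c also lost it without all arrays numbered 2 (-0.59, adjusted p = 0.161) or 3 (-0.46, adjusted p = 0.103). Sema5a lost it without those numbered 1 (-0.58, adjusted p = 0.0529) or 2 (-0.53, adjusted p = 0.111). Sema4f lost it without those numbered 1, 2 or 3 (-0.49 to -0.44, adjusted p = 0.0874 to 0.104). Sema6b (-0.57, adjusted p = 0.0177) lost it without CA1 cell body array 2 (-0.51, adjusted p = 0.0597) or the oocyte-bearing arrays (-0.77). It was also lost without all arrays numbered 1, 2 or 3 (-0.62 to -0.50, adjusted p = 0.0653 to 0.132). Sema4b (-0.38, adjusted p = 0.0453) lost it without any 1 of 10 arrays, all except CA2 dendritic array 2 and CA1 dendritic array 3 (-0.42 to -0.32, adjusted p = 0.0628 to 0.118), and without the oocyte-bearing arrays (adjusted p = 0.163). Sema6d was the gene above 0 (0.48, adjusted p = 0.0317), a call lost without any 1 of 9 arrays, all except CA2 dendritic array 3, CA1 dendritic array 3 and CA1 cell body array 3 (0.39 to 0.53, adjusted p = 0.0505 to 0.0787), and without the oocyte-bearing arrays (adjusted p = 0.238). Sema3e, the gene with the largest layer difference, gave 0.27 (adjusted p = 0.174), Plxnb1 gave -0.36 (adjusted p = 0.0877), Sema6a gave 0.10 (adjusted p = 0.509) and Plxna2 gave -0.01 with a 95% interval of -0.26 to 0.24 (adjusted p = 0.972).

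Between regions, Sema7a and Plxnc1 were higher and Sema3e and Plxnd1 lower in the CA2 than in the CA1 cell body layer. Because these 4 genes are 2 ligands and the receptors they are known to bind, the 250 bases before the start that the RefSeq promoter table lists for each are shown, on build GRCm38.p6, 5′ to 3′ on the strand of the gene, with the E-box letters CANNTG in capitals. The windows are chr9:57939862-57940111 on the plus strand for Sema7a, chr10:94944846-94945095 on the minus strand for Plxnc1, chr5:14025026-14025275 on the plus strand for Sema3e and chr6:115995006-115995255 on the minus strand for Plxnd1. The listed start is the outer end of the annotated gene for Sema3e, whereas for Sema7a, Plxnc1 and Plxnd1 it lies inside the annotated gene span, so these 3 windows overlap the gene.
Sema7a: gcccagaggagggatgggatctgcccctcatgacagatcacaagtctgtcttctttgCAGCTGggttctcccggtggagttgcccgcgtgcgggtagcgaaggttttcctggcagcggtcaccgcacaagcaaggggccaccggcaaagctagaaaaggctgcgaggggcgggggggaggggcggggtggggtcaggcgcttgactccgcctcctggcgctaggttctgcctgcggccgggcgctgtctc
Plxnc1: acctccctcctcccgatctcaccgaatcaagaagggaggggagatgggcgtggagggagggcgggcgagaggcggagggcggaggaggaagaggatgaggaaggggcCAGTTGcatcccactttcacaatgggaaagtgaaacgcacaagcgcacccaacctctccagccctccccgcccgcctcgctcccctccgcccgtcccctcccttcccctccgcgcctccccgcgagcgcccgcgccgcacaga
Sema3e: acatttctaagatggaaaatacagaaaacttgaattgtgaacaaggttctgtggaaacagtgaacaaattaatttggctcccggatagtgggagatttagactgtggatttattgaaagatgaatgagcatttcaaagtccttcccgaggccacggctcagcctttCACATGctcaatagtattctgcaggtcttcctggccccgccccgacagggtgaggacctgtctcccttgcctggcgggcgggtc
Plxnd1: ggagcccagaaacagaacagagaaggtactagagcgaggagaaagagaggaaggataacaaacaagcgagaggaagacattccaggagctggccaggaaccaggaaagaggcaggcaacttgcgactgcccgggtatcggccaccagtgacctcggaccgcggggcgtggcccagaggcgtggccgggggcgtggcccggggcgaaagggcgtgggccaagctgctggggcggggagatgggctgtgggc
CANNTG, which reads the same on both strands, stands in 1 place in the windows of Sema7a, Plxnc1 and Sema3e and in 0 places in that of Plxnd1, and it was found in 66.2% of the 32851 windows of this length in the table. The GC box letters GGGCGG, on either strand and counted apart from CANNTG, with which they may share letters, occur in 2 places for Sema7a, 4 for Plxnc1, 2 for Sema3e and 1 for Plxnd1, and in 32.7% of all windows. GC content was 66.4% for Sema7a, 68.8% for Plxnc1, 48.0% for Sema3e and 64.8% for Plxnd1, beside a median of 52.4% over all windows. For 24 of the 29 genes a window was in the table, 32 windows in all, of which 18 held CANNTG and 23 held GGGCGG. These are matches of letters and not binding sites.

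In the cell body layers, 14 of the 29 genes passed between CA2 and CA1, 8 higher and 6 lower in CA2, where 21.1% of all genes passed (10.6% higher and 10.5% lower). The median of the 29 was 0.05 beside 0.02 over all genes. Rescaling shifted the latter to 0.099 with quantile normalization and 0.117 with each array centred on its median, and the split of the 29 to 9 higher and 3 lower, and to 11 higher and 3 lower. Plxnd1 read 6.84, 7.15 and 6.97 in the CA2 cell body layer against 8.38, 8.21 and 8.13 in the CA1 cell body layer (-1.25, SE 0.10, adjusted p = 1.6e-05). Its ligand Sema3e was lower in CA2 as well, at 9.15, 9.03 and 9.17 against 9.87, 9.90 and 9.80 in CA1 (-0.74, SE 0.09, adjusted p = 0.000245). Neither gene's groups overlapped. Lack of overlap was also seen in this comparison for uncalled genes, among them Plxna2 (-0.13, adjusted p = 0.321) and Sema3f (0.06, adjusted p = 0.602). The share of all genes without overlap was not counted.

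Plxnc1 was the largest rise, at 9.04, 8.92 and 8.98 in the CA2 cell body layer against 7.77, 7.84 and 7.68 in the CA1 cell body layer (1.22, SE 0.10, adjusted p = 1.78e-05). Sema7a was higher in CA2 too, at 10.01, 10.20 and 10.24 against 9.39, 9.34 and 9.38 in CA1 (0.78, SE 0.08, adjusted p = 0.00011). Plxnc1 and Plxnd1 were the 2 members past 2-fold, where 2.07% of all genes were. Sema3c (0.99, adjusted p = 3.95e-05), Sema5a (0.85, adjusted p = 1.76e-05), Sema3d (0.64, adjusted p = 0.00153), Nrp2 (0.52, adjusted p = 0.000717) and Sema6a (0.50, adjusted p = 0.000891) were higher in CA2, and Plxnb2 was lower (-0.49, adjusted p = 0.00141). Sema3d lay under the medians of all features in both cell body layers, with means of 5.54 in CA2 and 4.90 in CA1. Nrp2 read 7.92, 7.79 and 8.03 in the CA2 cell body layer against 7.39, 7.37 and 7.41 in the CA1 cell body layer. All 11 CA2 neuron markers and 10 of 11 oligodendrocyte markers were higher in the CA2 cell body layer too, the oligodendrocyte sums being 11.09 to 11.19 in CA2 and 10.50 to 10.66 in CA1, and their part was not tested.

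The other 4 calls in the cell body layers were fragile. Sema3a was lower in CA2 (-0.55, adjusted p = 0.023) at values under the median of all features, and its call was lost without any 1 of the 6 cell body arrays (-0.60 to -0.51, adjusted p = 0.0517 to 0.0918). Plxna1 was lower (-0.31, adjusted p = 0.0144) and lost the call without CA2 array 1 or CA1 array 1 or 3 (-0.28 to -0.26, adjusted p = 0.073 to 0.0751). Sema4f was higher (0.22, adjusted p = 0.0381) and lost it without CA2 dendritic array 1, any CA2 cell body array or CA1 cell body array 1 or 3 (0.18 to 0.26, adjusted p = 0.0538 to 0.165). Sema4d was lower (-0.19, adjusted p = 0.0474) and lost it without any 1 array other than CA1 dendritic array 3 (-0.23 to -0.16, adjusted p = 0.0503 to 0.2). Without the oocyte-bearing arrays the calls of Plxna1 (-0.25, adjusted p = 0.0773), Sema4f (0.26, adjusted p = 0.0863) and Sema4d (-0.19, adjusted p = 0.203) were lost. Both rescalings ended the calls of Sema3a, Plxna1 and Sema4d. Sema6d (0.15, adjusted p = 0.263), Plxna4 (-0.12, adjusted p = 0.435) and Sema6b (0.02, adjusted p = 0.93) did not pass here.

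In the dendritic layers, 16 of the 29 genes passed between CA2 and CA1, 5 higher and 11 lower in CA2, where 30.2% of all genes passed (11.6% higher and 18.6% lower). The median of the 29 was -0.13 beside -0.11 over all genes. With quantile normalization the latter became -0.020 and the split 6 higher and 10 lower, and with median centring -0.002 and 6 higher and 6 lower. A fit of the 2 groups alone gave 9 calls, where 3109 of all 30142 genes passed. The main fit shares its estimate of the spread over all 12 arrays. The median SD over genes was 0.093 in the CA2 dendritic and 0.129 in the CA1 dendritic group. It was 0.072 in the CA2 cell body and 0.075 in the CA1 cell body group. Without all arrays numbered 1, which removes 4 arrays, 8 passed, where 4516 of all genes did.

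Plxna1 had the largest difference there, with the arrays given above (8.27 to 8.44 in CA2 and 9.59 to 9.70 in CA1), at -1.27 (SE 0.07, adjusted p = 1.78e-05). Plxnd1 was next, at 7.27 to 7.36 in CA2 and 8.26 to 8.57 in CA1 (-1.09, SE 0.10, adjusted p = 0.000124), and these were the 2 members past 2-fold, where 0.647% of all genes were. Plxna4 (-0.81, adjusted p = 0.000355) and Sema6b (-0.55, adjusted p = 0.00165) were also lower in CA2, and Sema6d (0.64, adjusted p = 0.000721) and Sema6a (0.61, adjusted p = 0.000419) were higher. Groups did not overlap for any of these 6 genes, and their calls stood under all 23 alternatives run for them. Lack of overlap alone does not set them apart. It was also seen for the uncalled Sema4c (-0.13, adjusted p = 0.104) and Sema3f (-0.10, adjusted p = 0.271). Nrp2 was higher in CA2, at 7.87, 7.92 and 7.93 against 7.34, 7.19 and 7.52 in CA1 (0.56, SE 0.07, adjusted p = 0.000672), a call lost without the oocyte-bearing arrays (0.52, adjusted p = 0.0545). In these tissue pieces 9 of 11 microglia markers were lower and 1 higher in the CA2 dendritic layer, and 8 of 11 oligodendrocyte markers were higher. Microglia sums were 12.57 to 12.61 in CA2 and 12.75 to 12.85 in CA1. Oligodendrocyte sums were 12.52 to 12.73 in CA2 and 11.88 to 12.22 in CA1. Pyramidal markers were lower in CA2 for 6 of 9 genes (median -0.52, sums 13.37 to 13.45 in CA2 and 13.70 to 13.72 in CA1), and endothelial markers were higher for 7 of 11 (median 0.39, sums 12.79 to 12.88 in CA2 and 12.35 to 12.45 in CA1). The part of these lists was not tested.

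The 9 other calls in the dendritic layers were each lost under at least 1 alternative. Sema3e (-0.47, adjusted p = 0.0039), Sema4b (-0.40, adjusted p = 0.00391), Sema7a (-0.38, adjusted p = 0.00859) and Plxna3 (-0.30) kept the call when any single array was left out. Each lost it when the 3 oocyte-bearing arrays were left out (-0.48 for Sema3e, -0.46 for Sema4b, -0.42 for Sema7a and -0.25 for Plxna3). Without all arrays numbered 1 it was lost for Sema3e (adjusted p = 0.0533), Sema4b (adjusted p = 0.0559) and Plxna3 (adjusted p = 0.0502). Plxna3 also lost it without those numbered 2 (adjusted p = 0.101), and Sema7a without those numbered 3 (adjusted p = 0.0716). Sema3c (0.37, adjusted p = 0.0139) lost it without CA2 dendritic array 1 or CA1 dendritic array 1 (0.29 to 0.31, adjusted p = 0.0549 to 0.0593), and Sema5a (0.28, adjusted p = 0.0136) without CA2 dendritic array 3 (0.25, adjusted p = 0.0514). Plxnb2 (-0.29, adjusted p = 0.0201) lost it without CA2 dendritic array 1 or 3 or CA1 dendritic array 1 (adjusted p = 0.0598 to 0.0829), and Sema4f (-0.24, adjusted p = 0.0237) without CA2 dendritic array 1 or 2 or CA1 dendritic array 1 (adjusted p = 0.0614 to 0.0902). Sema6c (-0.23) lost it without CA2 dendritic arrays 1 or 2, CA1 dendritic arrays 1 or 2, or CA1 cell body array 2 (adjusted p = 0.0504 to 0.113). The oocyte-bearing arrays, left out, ended these 5 calls too (adjusted p = 0.118 for Sema3c, 0.264 for Sema5a, 0.0733 for Plxnb2, 0.213 for Sema4f and 0.14 for Sema6c). Median centring also ended the calls of Sema7a (-0.27), Plxna3 (-0.19), Plxnb2 (-0.18), Sema4f (-0.13) and Sema6c (-0.12). Of the uncalled genes, Plxnc1 (0.23, adjusted p = 0.0991) and Sema3d (0.29, adjusted p = 0.0546) passed without CA1 dendritic array 3 (0.37, adjusted p = 0.00723 for Plxnc1 and 0.40, adjusted p = 0.0175 for Sema3d).

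**Figure D4:**
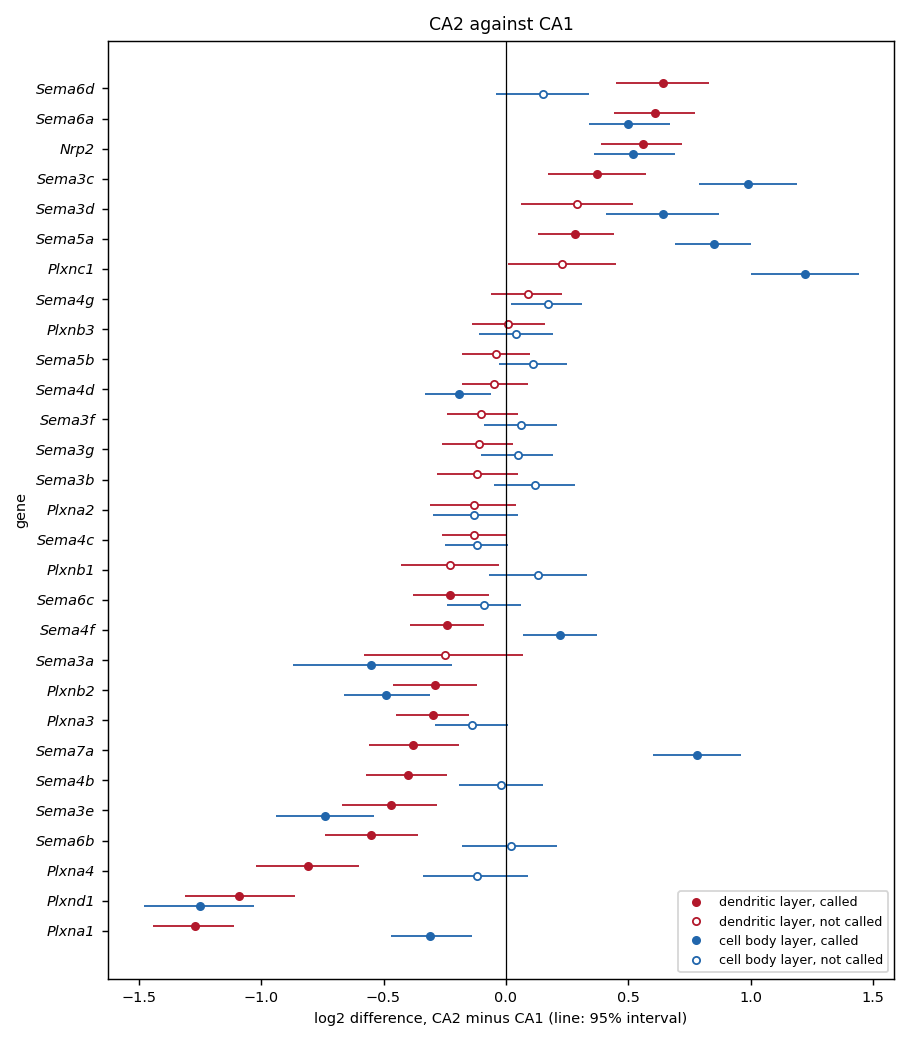
CA2 minus CA1 difference in log2 for each of the 29 genes in the dendritic layer and in the cell body layer, with 95% intervals, filled where the adjusted p is under 0.05. Plxnd1 is lower in CA2 in both layers (-1.09 dendritic, -1.25 cell body), and Plxnc1 is higher in the cell body layer (1.22) with 0.23 in the dendritic layer.

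Partners of the family were followed in 3 lists. Of 19 measured co-receptors and partner membrane proteins, 12 passed between the layers of CA2 (8 up and 4 down in the dendritic layer) and 15 between those of CA1 (10 higher and 5 lower), with medians of 0.09 and 0.22, where 34.0% of all genes passed in CA2 and 46.9% in CA1. The VEGF receptors Flt1 (2.22 in CA2 and 2.29 in CA1) and Kdr (1.68 in CA2 and 1.47 in CA1) were higher in the dendritic layer of both regions, as were Itgb1, the integrin chain that Sema7a binds (1.11 in CA2 and 0.99 in CA1), and Tyrobp and Trem2, which form a signalling complex with Plxna1 (Tyrobp 2.88 in CA2 and 3.14 in CA1, Trem2 0.54 in CA2 and 0.95 in CA1). The endothelial and microglial marker lists, of which Flt1 is itself a member, were higher in the same arrays, and their part was not tested. Chl1, an adhesion molecule that joins Nrp1 in the response to Sema3a, was the co-receptor with the largest positive difference between regions' layer effects (1.54, adjusted p = 6.5e-05). It averaged 9.76 ± 0.13 in the CA2 dendritic layer and 9.48 ± 0.01 in the CA2 cell body layer, and 9.23 ± 0.16 in the CA1 dendritic layer against 10.50 ± 0.08 in the CA1 cell body layer (SD, n = 3 each). Robo1, a receptor of Slit proteins, was higher in the CA2 than in the CA1 cell body layer (1.18, adjusted p = 2.41e-06), as was Tmem108, a neuronal membrane protein (1.63, adjusted p = 4.29e-07), while Chl1 was lower there (-1.02, adjusted p = 2.16e-05).

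Intracellular effectors showed no common direction: of 39 measured, 22 passed between the layers of CA2 (9 up and 13 down in the dendritic layer) and 28 between those of CA1 (17 higher and 11 lower), with medians of -0.01 and 0.04, beside the same shares of all genes. Farp1, an exchange factor for Rac, was higher in the dendritic layer (1.49 in CA2 and 1.72 in CA1), and Crmp1, a collapsin response mediator that carries class 3 signals to microtubules, was lower (-1.61 in CA2 and -1.04 in CA1). Mical2, an enzyme that oxidizes actin, was lower in the dendritic than in the cell body layer of CA2 (-1.24) and of CA1 (-0.70, adjusted p = 8e-06). It was also lower in the CA2 than in the CA1 dendritic layer (-0.92, adjusted p = 3.18e-05). Rras, a GTPase that plexins switch off, was higher in the dendritic layer of CA2 (1.14, adjusted p = 1.4e-06) and of CA1 (0.68, adjusted p = 5.25e-05). Mras, a relative, was lower in the CA2 than in the CA1 cell body layer (-0.91, adjusted p = 3.56e-06). The VEGF ligands, which share neuropilins with semaphorins, passed higher in the dendritic layer for 4 of 4 measured genes in CA2 and 3 of 4 in CA1. Of all genes, 16.2% passed higher there in CA2 and 28.3% in CA1. Without the oocyte-bearing arrays the CA2 calls of Vegfb (0.42, adjusted p = 0.135) and Pgf (0.43, adjusted p = 0.172) were lost, and that of Pgf was also lost without CA2 dendritic array 1 (0.33, adjusted p = 0.0729) or 3 (0.32, adjusted p = 0.0757) or CA2 cell body array 1 (0.34, adjusted p = 0.0713) or 3 (0.30, adjusted p = 0.089). Vegfa was higher by 1.11 in CA2 and 1.07 in CA1, and Vegfc by 1.22 in CA2 and 0.52 in CA1.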

How the data were processed

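The authors deposited 1 table of log2 expression for the 12 arrays, computed by RMA (a background correction, normalization and probe summary) per the submitters' processing notes. Which program ran it, and whether both runs were normalized together, is not given in the sources used here. RNA came from about 20 caps of 5 sections per piece and was amplified before labelling, per the labels' protocols, and amplification can compress or enlarge differences. Arrays have no read depth, and their number limits the precision.

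Of 72688 features, 30604 had 1 symbol in the platform annotation, 2146 had several and the others were unnamed here. Entrez identifiers matched 22818 to RefSeq, which updated 827 symbols, and for 355 genes with several features the one with the highest mean was used. The lmFit and eBayes functions of limma 3.58.1 (R 4.3.3) fitted the 30142 genes on all 12 arrays, with a mean per group (4) and replicate number as block. Two-sided p-values were adjusted over all genes (Benjamini-Hochberg), and calls needed an adjusted value under 0.05. The fit was tested on simulated data. Same-numbered arrays of different groups did not deviate together (18 pairs, 1 above a correlation of 0.1, range -0.346 to 0.132). Pairs with different numbers reached 0.251. These are deviations from means of 3 arrays, so they cannot settle whether a number is a mouse. The region comparisons use the same arrays as the layer comparisons, and each region comparison shares its groups with the interaction.

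Any member could be named, with full statistics for up to 12 called members with the largest differences per comparison; from each partner list up to 4 called genes with the largest differences were named, plus known partners. The members and lists were chosen with earlier results of these data known. Alternatives were the fit without the block, quantile normalization, median centring, the 2 groups alone, genes above the median, feature averaging, array weights, and leaving out arrays.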

Additional observations from a re-analysis of the deposited data

Results flagged for a closer look

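For 10 genes the dendritic minus cell body difference differed between CA2 and CA1 by limma's test of the difference itself (CA2 difference minus CA1 difference, Benjamini-Hochberg adjusted over all genes). The value was -1.16 for Sema7a, -0.99 for Plxnc1, -0.97 for Plxna1, -0.69 for Plxna4, -0.62 for Sema3c, -0.57 for Sema6b, -0.56 for Sema5a, -0.46 for Sema4f, -0.38 for Sema4b and 0.48 for Sema6d. Sema7a and Plxna1 passed under each of the 22 alternatives that apply to this test, and the other 8 did not under at least 1 of them.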

How the results depend on the processing

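Of 79 calls over the 29 genes and 5 comparisons, 47 stood under every alternative run for them (22 or 23, since the 2 groups alone give no difference between layer differences and the filter on dim genes removes Sema3d), with 15 of 20 in the CA1 layers, 14 of 19 in the CA2 layers, 2 of 10 in the difference between them, 10 of 14 between cell body layers and 6 of 16 between dendritic layers. No called value changed sign. The fit without the oocyte-bearing arrays keeps only array 1 of the CA2 dendritic layer, so its numbers of calls are not compared here. A fit of the 2 groups alone gave 9 of the 29 between dendritic layers and 13 between cell body layers. Over all genes it gave 3109 calls between dendritic layers, against 9105 in the main fit. Between cell body layers it gave 7594, against 6367 in the main fit. Fewer arrays enter both fits, and the cause of the unlike changes was not tested. On leaving out each array or each array number in turn the number of calls ranged over 16 to 22 in the CA1 layers, 18 to 19 in the CA2 layers, 4 to 11 in the difference between them, 10 to 14 between cell body layers and 8 to 18 between dendritic layers. Over all genes the same ranges, in that order, were 9706 to 14706, 7986 to 10609, 697 to 4878, 3451 to 6743 and 3663 to 9706. The main fit called 14122, 10251, 3504, 6367 and 9105 of all genes in the same order. Array weights gave 5579 calls over all genes between dendritic layers. Without the replicate block 21, 19, 10, 14 and 16 of the 29 genes were called in the same order. Over all genes those numbers were 14757, 10625, 4387, 6864 and 10138. Without the block Plxnc1 became a call in the CA1 layers (-0.26, adjusted p = 0.0365). Uncalled values near 0 changed sign: Sema6b in the CA1 layers became 0.07 with quantile normalization, and the difference between layer differences of Plxna2 became 0.00 with median centring and 0.00 with array weights. On leaving out arrays, Nrp2 ranged from -0.12 to 0.03 in the CA1 layers and from -0.07 to 0.04 in the CA2 layers, Sema6b from -0.09 to 0.11 between cell body layers, and the differences between layer differences of Plxna2 from -0.11 to 0.13 and of Sema6a from -0.04 to 0.19. The cause of these changes was not tested. The 3 arrays per group limit the precision throughout.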
